A study of Homo sapiens with 4 samples.

Results

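The long arm of chromosome 1 (1q) was described as a landscape of ONECUT2 binding in 22Rv1, an established human prostate carcinoma cell line. All peaks of chromosome 1 that start at or beyond position 142535000 (hg19) were taken, by position alone. They were 993 of 14431 peaks in ChIP replicate 1, 1003 of 11990 in ChIP replicate 2 and 378 of 4297 regions in the list from an irreproducible discovery rate (IDR) procedure, built to retain regions whose rank repeats between replicates. The short arm (1p, peaks that start below 121500000) served for comparison, with 649, 504 and 207. No peak of any list lay between these limits. The study has 4 libraries, 2 from chromatin precipitated with an antibody against ONECUT2 and 2 from input DNA, all from untreated cells as far as the labels say. Separate cultures are not named for the 2 ChIP libraries, and the spread between them may be technical.

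ONECUT2 is a transcription factor with 1 CUT domain and a homeodomain, which together contact DNA. It is known from liver, pancreas and nervous system development and as a regulator in advanced prostate cancer that no longer depends on androgen. ChIP sequencing counts DNA fragments that come down with the factor, and a peak is called where these exceed the local background of input DNA. Fold enrichment, the height used here, is the authors' value for each peak. It is the ratio of ChIP fragments to that background, with 1 added to each. A region that gives more input DNA has a higher background, and a peak there needs more ChIP fragments for the same fold.

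Peaks were denser on the long arm than on the short arm in all 3 lists. Replicate 1 had 9.31 peaks per Mb on 1q (interval 8.74 to 9.90) and 5.34 on 1p (interval 4.94 to 5.77), a ratio of 1.74 (interval 1.58 to 1.93). Replicate 2 had 9.40 per Mb on 1q (interval 8.83 to 10.0) and 4.15 on 1p (interval 3.79 to 4.53), a ratio of 2.27 (interval 2.03 to 2.53). The IDR list gave a ratio of 2.08 (interval 1.75 to 2.48). All intervals are exact, at 95%, and cover counting error only. Since the arm was singled out with its density known, these ratios describe it and are not independent evidence. Peak intervals covered 0.443% of the long arm in replicate 1 and 0.406% in replicate 2, against 0.262% and 0.188% of the short arm.

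An excess of peaks was detected only at folds below 6. Strong peaks, meaning a fold of at least 6, did not differ detectably in density between the arms, at 0.525 per Mb on 1q and 0.469 on 1p in replicate 1, a ratio of 1.12 (interval 0.760 to 1.65, adjusted exact p = 0.654). In replicate 2 they had 0.440 and 0.379 per Mb, a ratio of 1.16 (interval 0.758 to 1.79, adjusted exact p = 0.536). Below that height the long arm was denser in every class and both replicates. Below a fold of 3 the ratio was 1.84 in replicate 1 (interval 1.58 to 2.16) and reached 2.08 in replicate 2 (interval 1.74 to 2.50). Between folds of 3 and 4 it was 1.72 (interval 1.46 to 2.03) and 2.77 (interval 2.33 to 3.31), and between 4 and 6 it was 1.90 (interval 1.46 to 2.49) and 2.20 (interval 1.68 to 2.89).

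In shares, 56 of 993 long-arm peaks (5.64%) had a fold of 6 or more in replicate 1, against 57 of 649 (8.78%) on the short arm and 7.46% of all peaks of the list. Fisher's exact test gave an odds ratio of 0.621 (interval 0.415 to 0.928, adjusted p = 0.0188). In replicate 2 the shares were 47 of 1003 (4.69%) and 46 of 504 (9.13%), against 7.08% of all peaks, with an odds ratio of 0.490 (interval 0.314 to 0.764, adjusted exact p = 0.00155). The denominator of these shares is the peak total, known to be high when the arm was singled out. The shares thus restate the densities above, and their tests are no separate evidence. Median fold was nearly the same on both arms, at 3.18 on 1q and 3.21 on 1p in replicate 1 and 3.29 and 3.28 in replicate 2.

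Counted by ChIP fragments instead of fold, the result depended on the threshold. Peaks with 60 or more fragments at the summit, a threshold set with the values in view, were 2.11 times as dense on the long arm in replicate 1 (interval 1.60 to 2.80) and 1.88 times in replicate 2 (interval 1.36 to 2.61). Their share of long-arm peaks was 15.1% in replicate 1 against 12.5% on the short arm, so the odds ratio turned to 1.25 (interval 0.925 to 1.69, adjusted exact p = 0.168). In replicate 2 the shares were 10.4% and 12.5%, an odds ratio of 0.810 (interval 0.574 to 1.15, adjusted exact p = 0.256). A threshold of 60 fragments took in more peaks than a fold of 6. Replicate 1 had 150 on 1q and 81 on 1p, against 56 and 57. Replicate 2 had 104 and 63, against 47 and 46. The point ratios were highest in 2 classes, peaks with under 25 fragments (2.67 and 3.38) and peaks with 60 to 99 (2.76 and 2.37). Peaks with 25 to 39 fragments had the ratios 1.23 (interval 1.03 to 1.47) and 1.84 (interval 1.54 to 2.21). Those with 40 to 59 had 1.63 (interval 1.36 to 1.97) and 1.99 (interval 1.58 to 2.53). In replicate 2 the intervals of the classes from 25 to 99 fragments overlapped. Among peaks with 100 or more fragments the ratios were 1.21 and 1.18. Their intervals included 1, as they did at a fold of 6 or more.

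**Figure D1:**
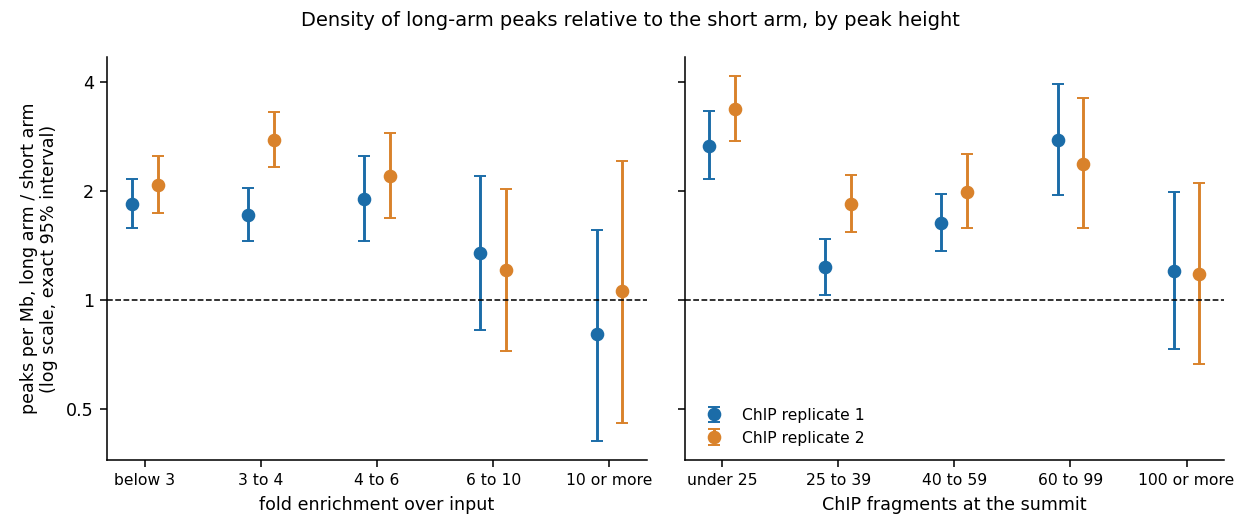
Ratio of long-arm to short-arm peaks per Mb (log axis) in classes of fold enrichment (left) and of ChIP fragments at the summit (right), with exact 95% intervals, for each replicate. By fold the ratio is above 1 in the 3 classes below 6 and its interval includes 1 in the 2 classes above, while by fragments it is highest under 25 and from 60 to 99.

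By input background under the peaks, the point ratios of density between the arms were highest at both of its ends. Background is given in fragments, on the scale of each ChIP library. Peaks over a background of 20 fragments or more had a density of 1.80 per Mb on the long arm and 0.140 on the short arm in replicate 1, a ratio of 12.9 (interval 7.82 to 22.5). Replicate 2 had 142 such peaks on 1q and 18 on 1p, a ratio of 8.98 (interval 5.48 to 15.6). At the smallest background of each list the long arm had 174 and 266 peaks against 74 and 94, ratios of 2.68 (interval 2.03 to 3.56) and 3.22 (interval 2.54 to 4.12). Above the smallest value and under 10 fragments, the class with the most long-arm peaks, there were 303 and 358 peaks against 206 and 160. The ratios there were 1.67 (interval 1.40 to 2.01) and 2.55 (interval 2.11 to 3.09). Between 10 and 15 fragments the intervals of both replicates included 1, with ratios of 0.836 and 1.13. From 15 to 20 fragments the ratios were 1.36 (interval 1.08 to 1.72) and 1.21 (interval 0.906 to 1.62).

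The 90th percentile of background was 22.6 fragments on 1q and 17.1 on 1p in replicate 1, and 22.0 and 17.6 in replicate 2. The medians went the other way, at 10.5 and 11.2 fragments in replicate 1 and 7.32 and 9.87 in replicate 2. In replicate 1 the 90th percentile ranged from 19.1 to 24.3 over the 11 segments of about 10 Mb on 1q and from 12.2 to 19.1 over the 12 on 1p, so the lowest long-arm segment stood level with the highest short-arm one. In replicate 2 the ranges were 11.7 to 26.4 and 12.3 to 21.2, and overlapped. Background enters fold as its denominator, and its part in the density of peaks was not tested. Without peaks over 15 fragments or more of background, a limit set with the values in view, 632 and 491 peaks gave a density ratio of 1.47 in replicate 1, and 760 and 391 gave 2.21 in replicate 2.

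**Figure D2:**
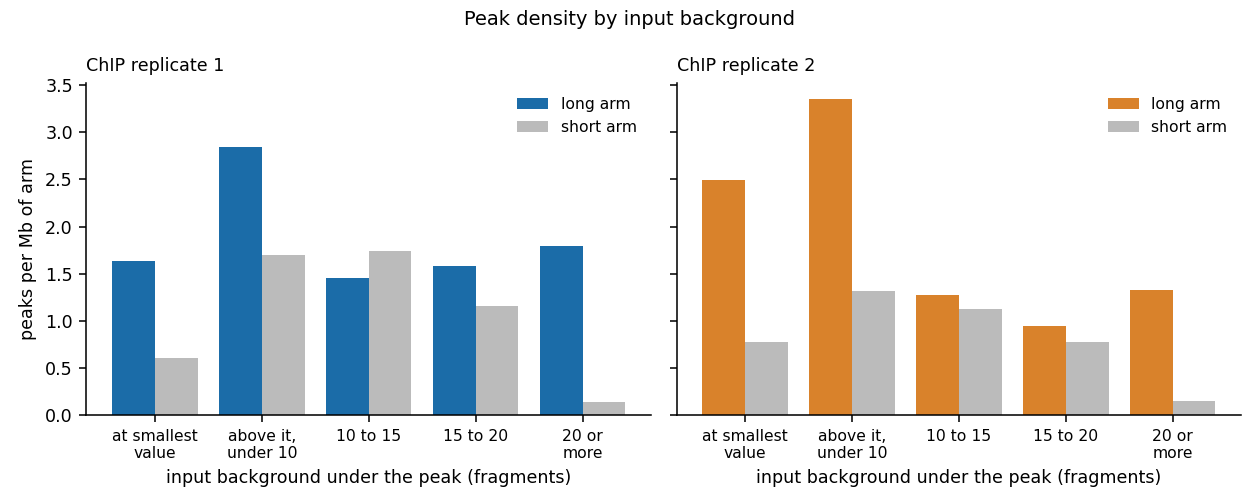
Peaks per Mb of each arm (bars from 0) in classes of input background under the peak, in fragments, for replicate 1 (left) and replicate 2 (right). At 20 or more fragments the long arm stands far above the short arm (1.80 against 0.140 per Mb in replicate 1). It is also well above at the smallest background. Between that value and 10 it is higher too, and between 10 and 15 it is about level.

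Whether long-arm peaks were seen in both libraries was asked next. In replicate 1, 530 of 993 long-arm peaks (53.4%, interval 50.2% to 56.5%) overlapped a replicate 2 peak, against 52.4% on the short arm and 51.1% of the whole list. The odds ratio was 1.04 (interval 0.849 to 1.27, adjusted exact p = 0.723). In replicate 2, 566 of 1003 long-arm peaks (56.4%, interval 53.3% to 59.5%) overlapped a replicate 1 peak, against 71.8% on the short arm and 64.5% of the whole list. Here the odds ratio was 0.508 (interval 0.400 to 0.644, adjusted exact p = 9.93e-09). The test counts each peak as independent, though 63.7% of these long-arm peaks had another less than 5000 bp away. Its interval is therefore likely too narrow and its p too small. It was not repeated with such neighbours counted once. All 56 and all 47 long-arm peaks with a fold of 6 or more were shared, as were all 57 and all 46 on the short arm and 1075 of 1077 and 844 of 849 in the whole lists. Sharing at that height was thus general to the lists.

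Unshared replicate 2 peaks of the long arm were low in fragments, with a median of 22 against 40 for shared ones, as in the whole list (22 against 37). Of the 266 replicate 2 peaks at the smallest background 27.4% were shared, against 44.7% of the 94 on the short arm. Over a background of 20 fragments or more 97.2% of the replicate 2 peaks of 1q were shared, and all 18 on 1p. In replicate 1 the same class had 51.6% shared on 1q and 41.2% on 1p. Replicate 2 had 1.01 times as many peaks as replicate 1 on the long arm, against 0.777 times on the short arm and 0.831 times in the whole lists. At the smallest background this ratio was 1.53 on 1q, 1.27 on 1p and 1.40 in all, and above it 0.900, 0.713 and 0.720.

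Long-arm regions of the IDR list were less often backed by both replicate lists. On 1q 215 of 378 regions (56.9%, interval 51.7% to 61.9%) held a peak of both, against 140 of 207 (67.6%, interval 60.8% to 74.0%) on 1p and 63.3% of all IDR regions. The odds ratio was 0.632 (interval 0.435 to 0.913, adjusted exact p = 0.0175). A peak of replicate 1 alone was found in 55 of the 378 long-arm regions, against 35 of 207 on 1p and 669 of all 4297. One of replicate 2 alone was found in 19 of the long-arm regions, against 5 of 207 on 1p. Neither share was tested between the arms. The remaining 89 regions (23.5%, interval 19.4% to 28.2%) held no peak of either list, against 27 of 207 (13.04%, interval 8.77% to 18.4%) on 1p and 18.3% of all IDR regions. These 89 were wide and of low signal, with a median width of 2412 bp and a median signal of 168, against 215 for the regions with both. Over the whole list, regions without a peak had much the same medians, 2195 bp and 162. Of the regions with a signal above 247, 81 of 94 (86.2%) on the long arm and 53 of 55 (96.4%) on the short arm held both.

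In windows of 1 Mb both arms were uneven. The 108 windows of the long arm, of which the first and the last are only partly covered, had a median of 8 peaks in replicate 1, 7 in replicate 2 and 3 regions in the IDR list, against 4, 3 and 1 in the 122 windows of the short arm. The variance of window counts was 5.49 and 7.88 times their mean in the replicate lists and 3.07 times in the IDR list, where independent peaks at an even rate would give about 1. On the short arm these values were 5.03, 3.68 and 1.96. Intervals on densities are therefore too narrow. The 10 fullest windows held 25.4% of the peaks in replicate 1, 29.8% in replicate 2 and 28.3% of the IDR regions, against 27.4%, 26.4% and 28.5% on the short arm. Peaks stood close together, with another peak less than 5000 bp away for 57.0% and 63.7% of long-arm peaks against 48.8% and 49.2% on the short arm. When such neighbours were counted once, a step devised with the values in view, 636 and 596 sites were left on 1q and the density ratios became 1.56 (interval 1.38 to 1.76) and 1.89 (interval 1.66 to 2.16).

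The 5 fullest windows of replicate 1 were window 4, counted from the centromere side (33 peaks), window 43 at 184 Mb (29), window 51 (27), window 66 at 207 Mb (27) and window 8 at 149 Mb (26). Window 4 ran from 145000001 to 146000000 and window 51 from 192000001 to 193000000. In replicate 2 the fullest were window 51 (55), the windows at 184 and 169 Mb (36 each), window 4 (33) and the window at 234 Mb (29). The IDR list had its fullest window in window 4, with 20 regions, followed by 207 (12) and 212 Mb (11), and then by windows with 10 regions at 155, 156 and 161 Mb. Full windows differed in their background. At 156 Mb the median background was 19.7 fragments in replicate 1 and 22.0 in replicate 2, with none of the peaks at the smallest value. At 169 Mb it was 4.57 and 4.90, close to the smallest value, and 11 of 24 and 18 of 36 peaks lay at it. The number of peaks of fold 6 or more varied between full windows. In replicates 1 and 2 it was 3 and 4 in window 4, 2 and 3 at 207 Mb, 2 and 2 in window 51, 2 and 2 at 155 Mb, 1 and 2 at 184 Mb and 2 and 1 at 156 Mb. It was 1 and 1 at 161, 169 and 212 Mb, 1 and 0 at 149 Mb and 0 in both at 234 Mb.

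**Figure D3:**
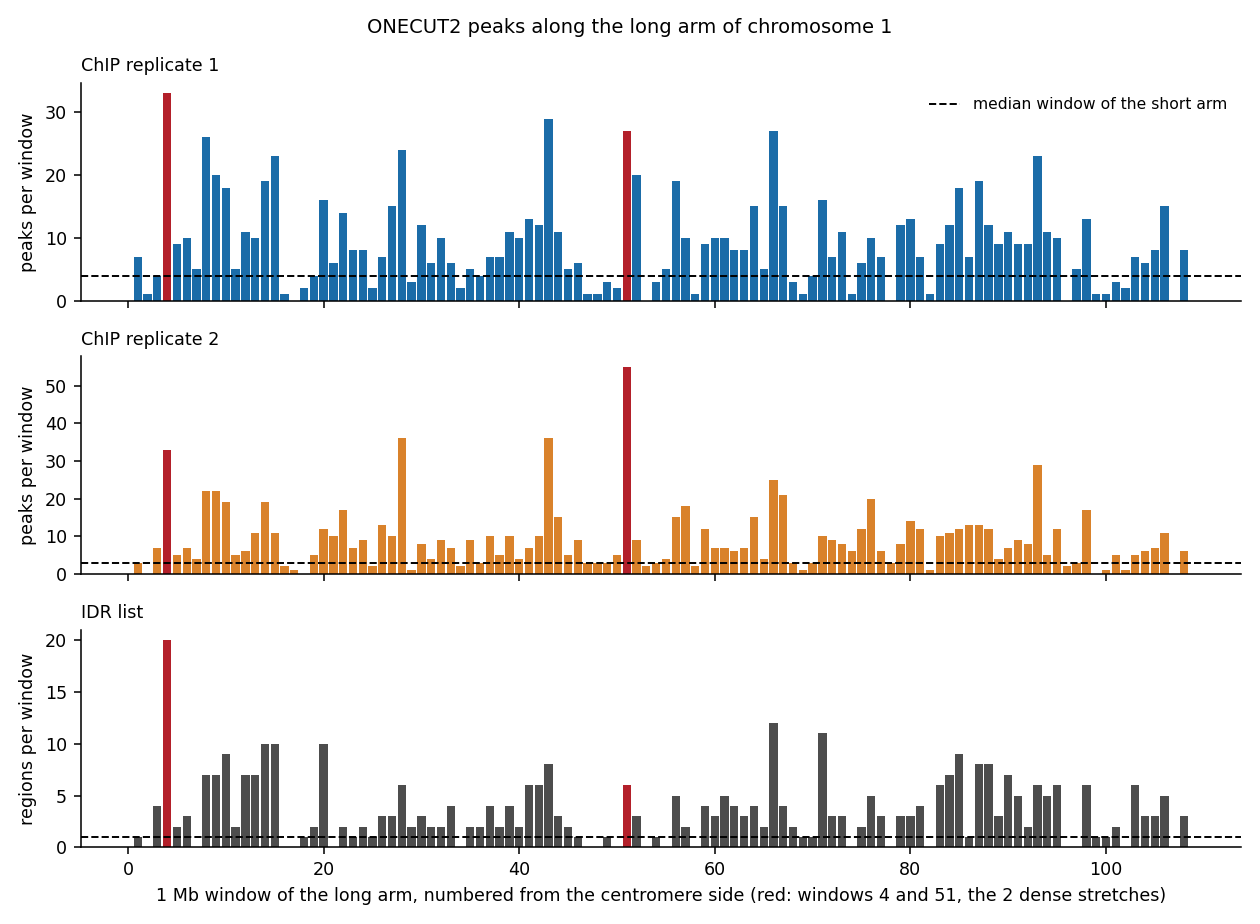
Number of peaks in each 1 Mb window of the long arm, numbered from the centromere side, in both replicate lists and the IDR list. The dashed line is the median window of the short arm and red bars are the 2 dense stretches, window 4 with 33, 33 and 20 and window 51 with 27, 55 and 6.

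The longest part of the arm without a peak in any list ran from 157016276 to 158969556, over 1.95 Mb. The next, over 1.75 Mb, ran from 247374011 to 249119906 near the end of the arm and held the only window without a peak in any list. Both parts of 1q are known as background for clusters of olfactory receptor genes, which are silent in most tissues. The short arm had 16 windows without a peak in any list, and its longest gap was 3.56 Mb. Along the arm, density was highest in the segment of 10 Mb nearest the centromere, with 13.8 peaks per Mb in replicate 1, 12.7 in replicate 2 and 5.50 IDR regions. It was lowest in the last segment in both replicates, at 6.85 and 5.36 per Mb. The peaks nearest the centromere began at 142535523 in replicate 1 and 142535615 in replicate 2, with folds of 2.93 and 2.101, and the last ones before it on the short arm ended at 121485181 and 120629056, with folds of 1.32 and 4.57. In the IDR list the nearest regions began at 142537586 on 1q, with a signal of 185, and ended at 120575759 on 1p, with a signal of 164.

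The dense stretch of window 4, 145000001 to 146000000, was the fullest window of the arm in the IDR list and in replicate 1. This proximal part of 1q is known as background for long duplicated segments and gene families in near-identical copies, where short reads can map to more than 1 place. The treatment of such reads is not known here, so peaks in copies are uncertain. Each replicate had 33 peaks here, 17 of them shared in each list (51.5%, interval 33.5% to 69.2%). Their median fold was 2.96 in replicate 1 and 3.07 in replicate 2, and 3 and 4 peaks reached a fold of 6. The median background was 11.6 and 10.3 fragments and the highest 24.3 and 21.2.

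Of the 20 IDR regions in this stretch 10 held a peak of both replicates, 1 of replicate 1 alone and 3 of replicate 2 alone, and 6 held none. The 3 regions of highest signal were among those without a peak of both. The first, from 145026910 to 145031685 with a signal of 380, had 1 peak in replicate 1 with a fold of 2.80 and none in replicate 2. The second, from 145020655 to 145022181 with a signal of 309, and the third, from 145040502 to 145043428 with a signal of 305, held no peak of either list. The first 100 kb of the stretch held 8 of the 20 regions, while the replicate peaks there reached a fold of only 2.81 and 3.07.

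Further along, the stretch held sites seen in both libraries. The highest pair ran from 145246211 to 145246602 in replicate 1, with folds of 10.4 and 8.16 (mean 9.26 ± 1.55, SD, n = 2) and both summits at the same base. Its 57 and 49 fragments stood over a low background of 4.60 and 5.12. The second pair, from 145382418 to 145383472, had folds of 9.75 and 7.06 (mean 8.40 ± 1.90, SD, n = 2), over a background of 11.6 and 13.4 fragments. The third, from 145243273 to 145243567, had folds of 6.70 and 6.81 (mean 6.76 ± 0.0798, SD, n = 2). It lay within 3 kb of the first, so these pairs need not be separate sites.

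The dense stretch of window 51, 192000001 to 193000000, had a lower median background than window 4, at 4.37 fragments in replicate 1 and 4.87 in replicate 2. As background, this part of the arm is known for genes of the RGS family, which shorten signals from G-protein-coupled receptors. Replicate 1 had 27 peaks and replicate 2 had 55. In each list 17 peaks were shared, which is 63.0% of the replicate 1 peaks (interval 42.4% to 80.6%) but 30.9% of the replicate 2 peaks (interval 19.1% to 44.8%). Both intervals overlap those of window 4, and the difference between the windows was not tested. Background was at its minimum for 15 of 27 peaks in replicate 1 and 34 of 55 in replicate 2. Their median height was 21 fragments in both, against 36 and 29 on the whole arm, and the median fold was 3.72 and 3.58. Counted with neighbours under 5000 bp as 1, the stretch had 15 and 20 sites. The IDR list kept 6 regions here, of which 3 held a peak of both replicates and 2 held none.

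No replicate 1 peak lay in the first 400 kb of the stretch, and the fullest 100 kb, from 500 to 600 kb, held 9 peaks of replicate 1 and 19 of replicate 2. The highest pair ran from 192599987 to 192601009 in replicate 1. Its folds were 6.33 and 10.4 (mean 8.36 ± 2.87, SD, n = 2), with 33 and 60 fragments and summits 2 bp apart, and it was the only peak of the stretch to pass a fold of 10 in either list. The pair of second rank, from 192601236 to 192601425 with a fold of 3.91, had the same replicate 2 peak as its partner and is no separate site there. The third, from 192660034 to 192660344, had folds of 5.54 and 6.75 (mean 6.14 ± 0.857, SD, n = 2). In both of these sites replicate 2 was the higher library.

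The IDR region of highest signal here, from 192777386 to 192778893 with a signal of 252, had low folds of 2.88 and 3.20 over a background of 28.9 fragments in replicate 1 and up to 22.0 in replicate 2, the highest backgrounds of the stretch. The region over the highest pair, from 192599702 to 192601404, followed with a signal of 187. The third, from 192659226 to 192662276 with a signal of 166, lay over the third pair. Signal and fold thus ranked the sites of this stretch differently.

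**Figure D4:**
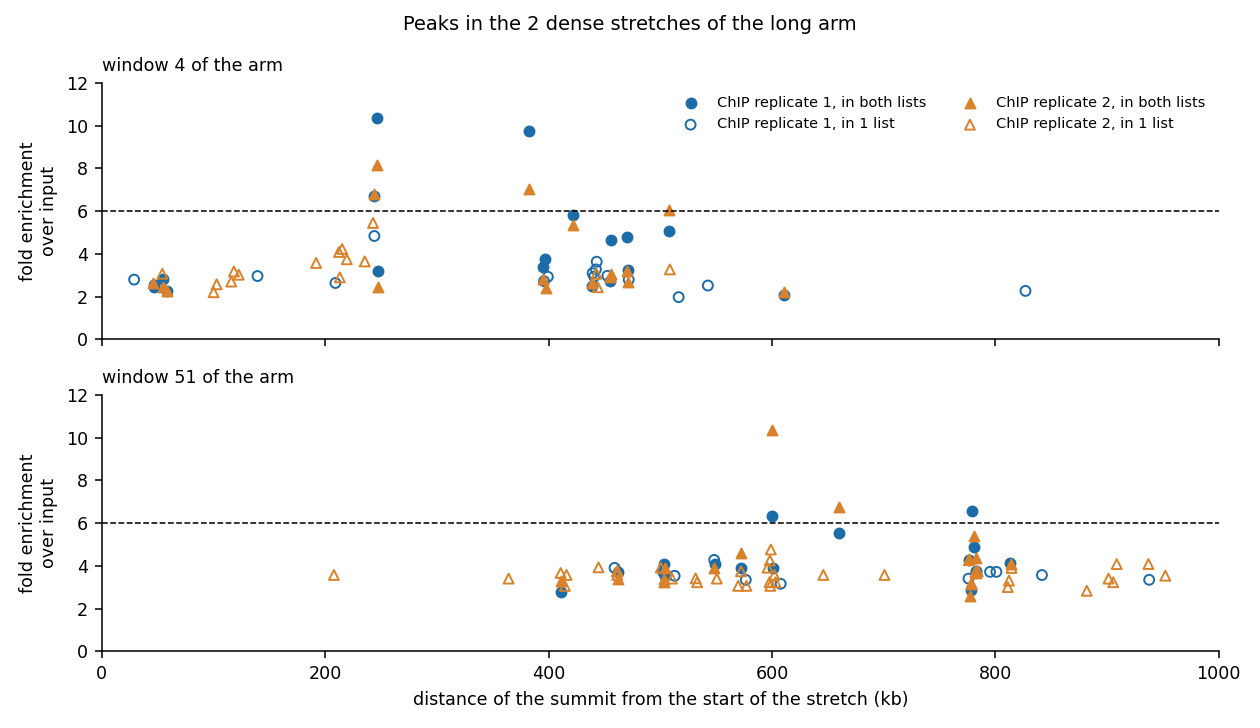
Fold enrichment of each peak against the distance of its summit from the start of the stretch (kb), for window 4 (top) and window 51 (bottom). Filled symbols are peaks found in both lists, open symbols peaks in 1 list, and the dashed line a fold of 6, which 3 and 4 peaks reached in window 4 and 2 and 2 in window 51.

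The strongest sites of the arm depended on the scale. By IDR signal the first 12 regions lay over a background of 13.2 fragments or more in both lists, above the arm's medians, and each held a peak of both replicates. The region of highest signal (968, rank 37 of all IDR regions) ran from 156251988 to 156253495. Its fold was 12.6 in replicate 1, from 292 fragments over 22.3, and 10.8 in replicate 2, from 270 over 24.2 (mean 11.7 ± 1.26, SD, n = 2). The second, from 167189654 to 167190725 with a signal of 856, had 12.3 and 10.4 (mean 11.4 ± 1.31, SD, n = 2), with the most fragments of any long-arm peak in both libraries, 294 and 277.

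The next 5 regions by signal had lower folds. The region from 151483644 to 151484630 had 7.87 and 5.69, that from 228674155 to 228675330 had 10.3 and 7.58, and that from 153949552 to 153950349 had 8.89 and 6.93. The region from 150206385 to 150207767 had the closest replicates, 8.65 and 8.46 (mean 8.55 ± 0.132, SD, n = 2). The region from 165737915 to 165738700 had 10.5 and 7.74. In all 12 regions replicate 1 had the higher fold.

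Further down, the regions from 207223659 to 207225358 and from 207225865 to 207226668 both lay over the same replicate peak, with folds of 10.8 and 7.47 (mean 9.12 ± 2.33, SD, n = 2), and are 1 site in those lists. The region from 155053815 to 155054737 had 7.77 and 6.05. The region from 165599739 to 165600435 had 6.85 in replicate 1, and 3.84 in replicate 2 over the highest background of the 12, 33.7 fragments. The twelfth region, from 234744236 to 234747500 with a signal of 488, was the widest of the 12 at 3265 bp. It covered 3 peaks of replicate 1 and 4 of replicate 2, and the best of them had folds of only 3.36 and 2.98. By fold that peak ranked 418 and 665 on the arm.

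By mean fold the first 12 pairs were mostly other sites, and only 2 of them lay in the 12 regions of highest signal. The highest pair ran from 148241317 to 148241784, with folds of 18.5 and 11.6 (mean 15.1 ± 4.91, SD, n = 2), the widest difference between replicates of the 12. It had 115 and 87 fragments over a background of 5.26 and 6.59, and lay in no IDR region. The second, from 163891204 to 163892717, had 17.5 and 12.4 (mean 14.96 ± 3.58, SD, n = 2) over the smallest background of each list, and its IDR signal of 267 ranked 73 on the arm. The third, from 169046694 to 169049429, had 11.03 and 15.6 (mean 13.3 ± 3.26, SD, n = 2), and was higher in replicate 2. The SD within each pair was larger than the differences between these 3 means, which do not settle an order.

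In the next 3 pairs the replicates stood closer together. The pair from 185665316 to 185667077 had folds of 13.6 and 11.9, with summits 1 bp apart. The pair from 168771897 to 168773690 had 12.5 and 12.2 (mean 12.4 ± 0.155, SD, n = 2), and that from 242402911 to 242403907 had 11.7 and 11.9 (mean 11.8 ± 0.140, SD, n = 2). The 2 regions of highest IDR signal, at 156 and 167 Mb, came next. The last 4 pairs began at 150178190, 216396594, 232800288 and 184771041, with mean folds of 11.3, 11.1, 10.96 and 10.8. The last of these, in the full window at 184 Mb, was higher in replicate 2 (12.01 against 9.61) and was the second pair of the 12 that lay in no IDR region. In all 12 pairs the summits were at most 71 bp apart.

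**Figure D5:**
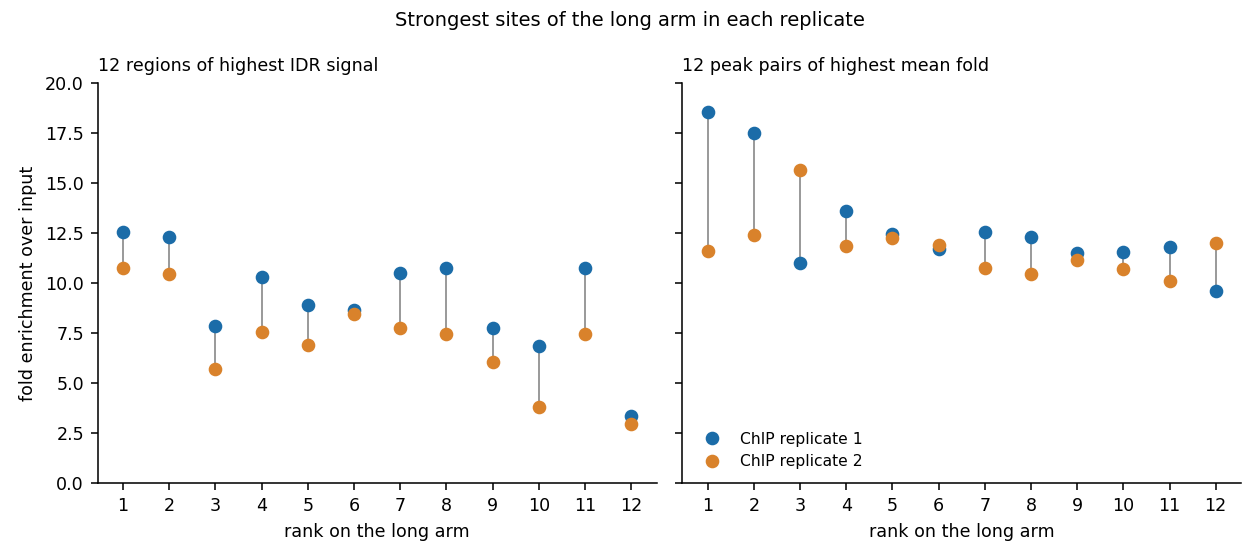
Fold enrichment in each replicate (points, joined by a line) for the 12 long-arm regions of highest IDR signal (left, best peak in each region) and the 12 peak pairs of highest mean fold (right), by rank. Replicate 1 is above replicate 2 in all 12 regions on the left, which fall to 3.36 and 2.98 at rank 12, and in 9 of the 12 pairs on the right.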

How the data were processed

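ONECUT2 ChIP and input DNA of 22Rv1 cells were analysed from 3 deposited peak lists, 1 for each of the 2 ChIP replicates and 1 from an irreproducible discovery rate (IDR) procedure. Replicate peaks came from MACS2, per the file headers, and MACS2 2.1.1, BWA 0.7.13-r1126, Picard and the build hg19 are named, without a role for each, per the submitters' processing notes. The authors gave each replicate peak a fold enrichment (ratio of ChIP to input background at the summit) and −log10 p and q values, as deposited. The IDR list has a deposited signal score whose scale its header does not name. For the aligner settings, read filters, read totals and IDR program, details are not given in the sources used here.

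By inverting the MACS2 formulas for fold and −log10 p, the fragments at each summit and its background were obtained. The formula for fold adds 1 to the fragments and 1 to the background. A whole number of fragments fitted within 0.001 in all 14431 and 11990 peaks. Both lists have 1 common input background, whose smallest value was 4.37 fragments in replicate 1 and 4.87 in replicate 2. Peaks overlapped when they shared at least 1 bp. Densities were compared as ratios with exact 95% intervals, and shares with Fisher's exact test, two-sided, adjusted by Benjamini-Hochberg over 8 comparisons of the arms (SciPy 1.17.1). These treat each peak as 1 observation within the 2 libraries, cover counting error only, and are too narrow where peaks cluster. The overlap, recovery and ratio steps were tested on simulated data. Members, lists and tests were chosen with earlier results of these data known, the high density of the arm among them. Named by rule were the 12 IDR regions of highest signal, the 12 peak pairs of highest mean fold, the 5 densest windows of each list, the longest gaps and the 3 highest pairs and IDR regions of each dense stretch. A pair joins a replicate 1 peak to the replicate 2 peak that overlaps it with the closest summit. No hg19 genome or annotation was used here, so no gene or sequence was assigned to a peak.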

Additional observations from a re-analysis of the deposited data

How the results depend on the processing

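Over 51 alternative values, 41 kept their direction and their side of the test (for background, moved by less than the spread between replicates). The alternatives with 60 or more fragments, a background under 15 fragments, merged neighbours, shared peaks only, folds under 6 and the 90th percentile of background were chosen after seeing the data. The causes of the changes below were not tested. The density ratio lost its test at a fold of 6 or more (1.12 in replicate 1, 1.16 in replicate 2), where far fewer peaks are counted. With 1 replicate list in place of the IDR list it was 1.74 to 2.27. These values repeat the main results of the replicate lists and are no separate support, though the count of alternatives includes them. The odds ratio of strong peaks missed the threshold at a fold of 4 in replicate 1 (0.897), and at a fold of 10 (0.460) and with fragments (0.810) in replicate 2. With fragments it turned to 1.25 in replicate 1. The odds ratio of shared peaks in replicate 1, which passed no test, turned to 0.936 with reciprocal overlap and 0.971 with summits within 100 bp. The ratio of background was 0.941 and 0.742 at the median and 1.32 and 1.25 at the 90th percentile. No paired analysis was possible because peak lists hold positions called per ChIP library, and both use 1 common input background. Leaving out the 2 dense stretches changed no call. Neither replicate could be left out of the shares of shared peaks or of backed IDR regions, and sequences under summits were not analysed for want of an hg19 genome. The median fragment number on the arm was 36 in replicate 1 and 29 in replicate 2, which limits each fold value.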

Other observations

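Where both lists had a long-arm peak, their heights ran alike. Over 530 overlapping pairs of 1q the rank correlation (Spearman's rho, a description over sites within the same 2 libraries and 1 common input) was 0.739 for fold, 0.912 for fragments and 0.944 for background, against 0.709, 0.851 and 0.892 over 340 pairs of 1p. The value for background follows from the common input and is no measure of how alike the ChIP libraries were. Summits lay within 100 bp in 312 pairs (58.9%), and replicate 1 had the higher fold in 233 of these, with a median log2 ratio of replicate 2 over replicate 1 of -0.17. Over all pairs of the lists 4285 of 7370 (58.1%) lay within 100 bp and replicate 1 was higher in 3180 of these, so the long arm stood close to the whole. Among strong long-arm peaks (fold of at least 6) the IDR list took in 46 of 56 from replicate 1 and 34 of 47 from replicate 2, against 46 of 57 and 37 of 46 on the short arm and 861 of 1077 and 653 of 849 in the whole lists. Long-arm peaks inside the IDR list had a higher background than those outside it, with medians of 16.6 against 7.23 fragments in replicate 1 and 14.6 against 5.72 in replicate 2, and a lower median fold, 2.98 against 3.30 and 3.14 against 3.41. In the whole lists the background medians were 13.1 against 8.39 and 13.2 against 5.86 fragments, and the median folds 3.30 against 3.27 and 3.34 against 3.41. Of the 100 IDR regions of highest signal in the genome, 4 lay on the long arm and 5 on the short arm. The arms held 8.80% and 4.82% of all IDR regions.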
